A study of Mus musculus with 24 samples.

Results

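Chemokine ligands are small secreted proteins that guide leukocytes along concentration gradients, and 10 of them that macrophages make were followed here across sorted mouse lung macrophages. The members are Ccl2, Ccl3, Ccl4, Ccl6, Ccl9, Ccl17, Cxcl1, Cxcl2, Cxcl3 and Cxcl16. They were taken by name from the deposited table of gene counts, which holds 43430 genes, and all 10 passed the filter on low counts. Each ligand binds one or a few receptors that cross the membrane of the responding cell and signal through G proteins. Ccl2 draws monocytes through Ccr2, and Ccl3, Ccl6 and Ccl9 act on Ccr1. Ccl17 acts on Ccr4, Cxcl16 on Cxcr6, and Cxcl1, Cxcl2 and Cxcl3 draw neutrophils through Cxcr2. In the lung, alveolar macrophages are a main early source of several of these proteins when particles or microbes are inhaled.

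The libraries came from C57BL/6J mice and fell into 6 groups of 4. Young mice were 8 to 12 weeks old and old mice more than 18 months. Naive mice gave Siglec F-high alveolar macrophages only, and mice studied 28 days after asbestos, a mineral fibre that scars the lung, gave a Siglec F-high and a Siglec F-low sort. Siglec F is a surface lectin of resident alveolar macrophages, and the submitters' design names resident and monocyte-derived alveolar macrophages as the cells sorted. No genotype or drug differed between the groups, the labels give no sham-treated group, and the naive lungs gave no Siglec F-low sort. RNA for sequencing was 30 ng of total RNA a library, selected for poly(A). The labels do not say that each library came from a separate mouse, so the p-values below measure the spread between these libraries, which may be technical in part.

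Of the 24 libraries, 22 held 13423080 to 18124526 counts (median 16238528) on 17069 to 18820 genes, and the log2 levels of each had an r of 0.9799 or more with the mean of its fellow libraries. The remaining pair stood apart. They are replicate 3 of the Siglec F-high sort after asbestos, in young and in old mice. The old one had 3894699 counts in total, of which 44.9% lay on rRNA-related gene models, against 0.224 to 0.544% in the 22, and its r was 0.928. The young one had 11889517 counts, detected 12528 genes and had an r of 0.886. In the young one Ccl2, Ccl3, Ccl4, Ccl17, Cxcl2, Cxcl3 and Cxcl16 were each higher than in any other library of its group. Of these, Ccl2, Ccl17 and Cxcl3 lay far above the rest. In the old one Ccl17 and Ccl4 rested on 1 count each. Counts of members passing are therefore given from the fit of all 24 libraries and from the fit of 22 without that pair, and values come from the fit of 24 where no fit is named. Siglecf itself was lower in the Siglec F-low sort at both ages (log2 difference -0.67 ± 0.14 SE in young and -1.35 ± 0.14 in old mice, edgeR adjusted p 0.00443 and 3.84e-06). Of 15 monocyte and monocyte-derived macrophage markers, 6 were higher in the Siglec F-low sort of young mice and 8 in that of old mice, led by the complement genes C1qa, C1qb and C1qc, and 0 were lower. Of 15 resident alveolar macrophage markers, 2 were higher (Fabp5 and Chil3) and 5 lower in young and 2 higher and 4 lower in old Siglec F-low cells. The defining monocyte markers Ly6c2 and Ccr2 did not pass the test there (edgeR adjusted p 0.106 and 0.52 in young, 0.867 and 0.236 in old mice).

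Ccl6 dominated the chemokine RNA of these cells. It held 89.5 to 94.7% of the counts of the 10 genes in the 22 libraries, and the 10 genes together held 0.357 to 1.02% of a library's counts. Levels are given as CPM, the counts of a gene scaled to a fixed library total, with library totals adjusted by the trimmed mean of M-values, and between genes as CPM per kilobase of exon. Per kilobase, Ccl6 was at 1940 CPM in young naive and 2031 CPM in old naive Siglec F-high cells, and its libraries lay above those of every other member in all 6 groups. In young naive cells the order then ran Cxcl2 (80.2 CPM per kilobase), Ccl3 (66.1), Ccl9 (17.3), Ccl2 (11.6), Ccl4 (4.17), Ccl17 (3.43), Cxcl1 (2.44), Cxcl16 (1.90) and Cxcl3 (0.666). Neighbours in that order whose libraries overlapped were Cxcl2 with Ccl3, Ccl9 with Ccl2, and each step from Ccl4 to Cxcl16. The order differed in the Siglec F-low sort, where Ccl9 came after Ccl6. In old Siglec F-low cells Ccl9 was at 133, Ccl17 at 131, Ccl3 at 94.3 and Cxcl2 at 82.3 CPM per kilobase, each overlapping its neighbour. Cxcl16 followed at 14.7, Ccl2 at 13.6, Cxcl1 at 7.64, Ccl4 at 7.41 and Cxcl3 at 5.47, with Cxcl16 overlapping Ccl2, and Cxcl1, Ccl4 and Cxcl3 overlapping in turn. Cxcl3 was last in all 6 groups by its mean. In a bulk library a lower share of cells that make a gene and less of its RNA per cell cannot be told apart.

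**Figure D1:**
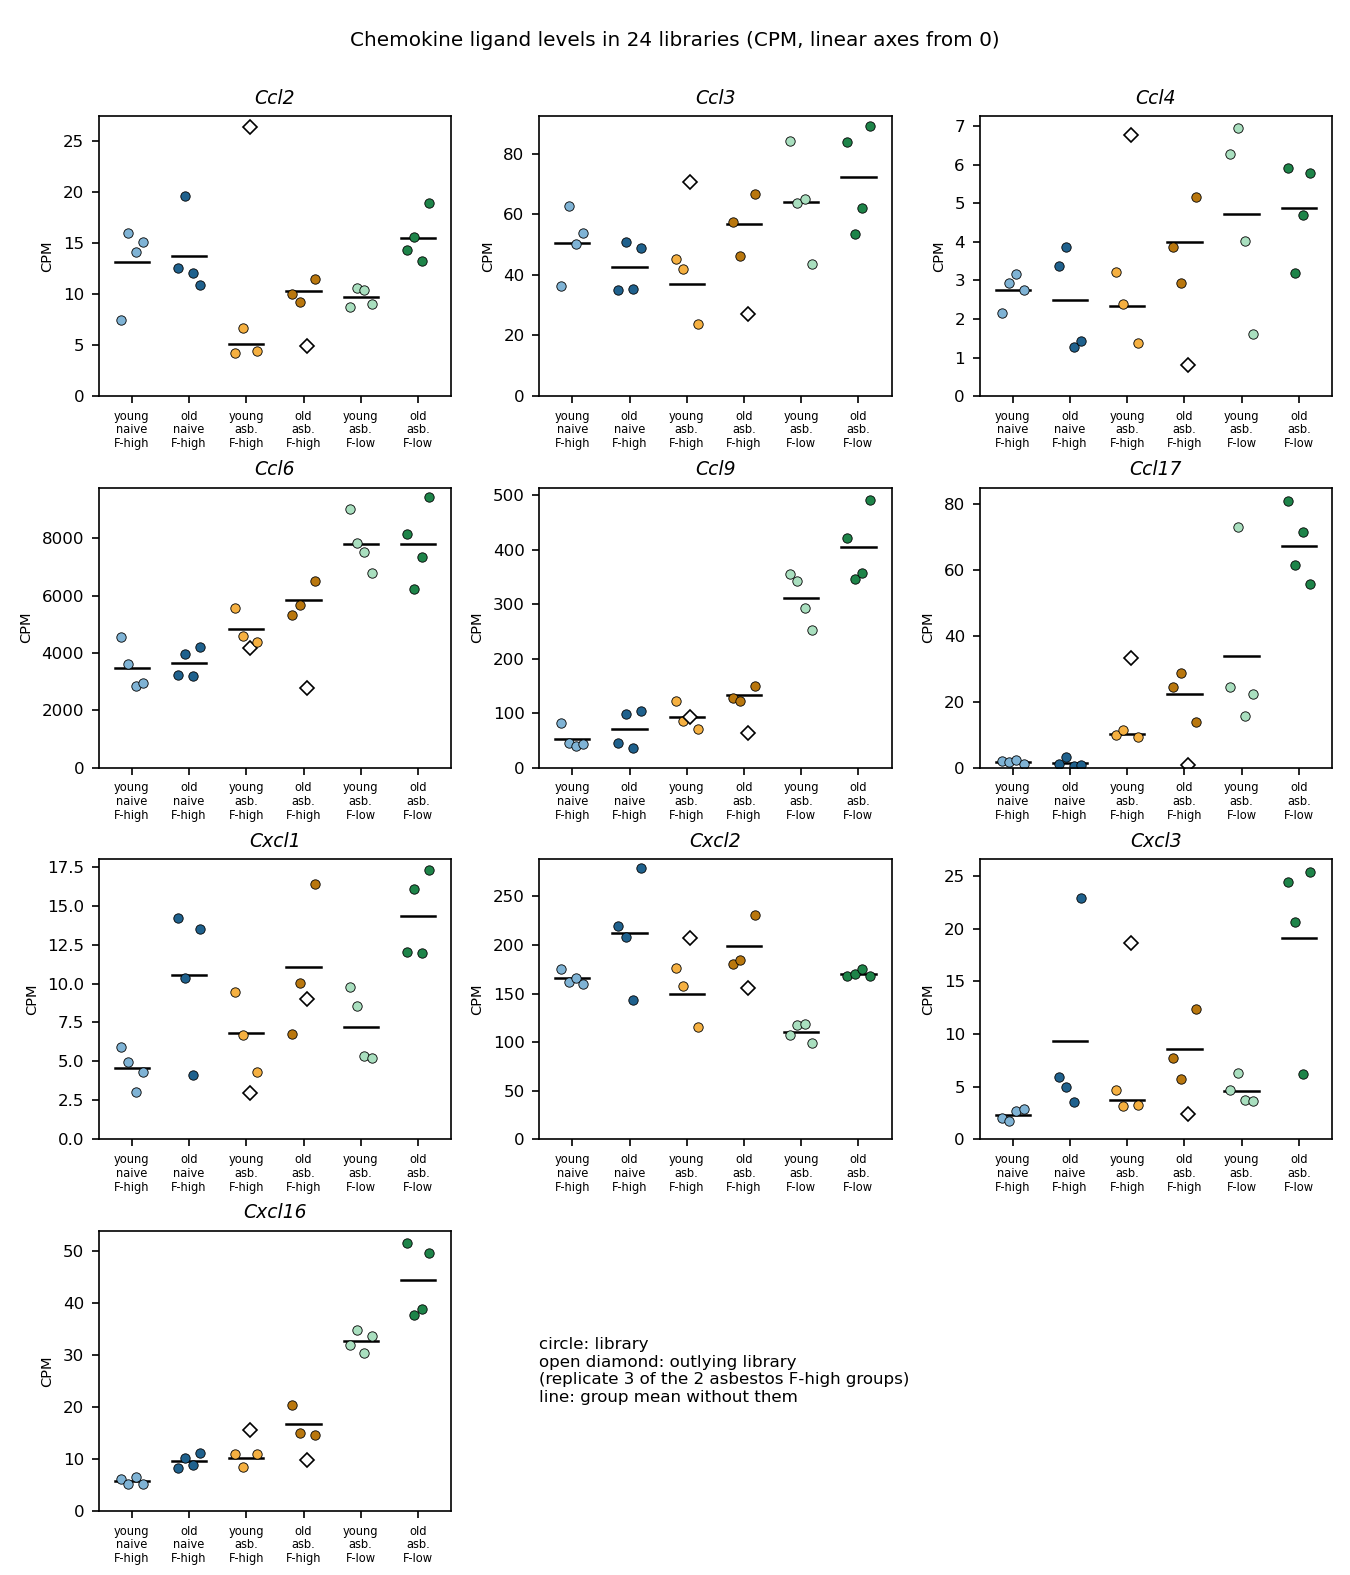
Level of each chemokine ligand (y axis, CPM, linear from 0) in the 4 libraries of each of 6 groups (x axis; asb., asbestos; F-high and F-low, Siglec F sorts), with circles for libraries, open diamonds for the pair of libraries that stood apart and lines for group means without them. Ccl9 and Cxcl16 are highest in the Siglec F-low groups, Ccl17 is near 0 in naive cells, and the young open diamond is the highest Ccl2 library of all 24, at 26.3 CPM.

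The comparison of sorts asks how cells with low and high Siglec F differ after asbestos in mice of the same age. The labels do not say that both sorts came from the same lungs. Ccl9, Cxcl16 and Ccl6 were higher in Siglec F-low than in Siglec F-high cells of young mice, and Ccl9 and Cxcl16 in those of old mice. With all 24 libraries, 3 of 10 members passed an edgeR adjusted p of 0.05 in young mice, all higher, against 4.99% of the 13467 genes tested, of which 3.41% were higher and 1.58% lower. In old mice 2 of 10 passed, both higher, against 4.3% of genes tested, 2.64% higher and 1.66% lower. With 22 libraries the counts were 6 of 10 in young mice (12.0% of 13629 genes, 7.42% higher and 4.6% lower) and 3 of 10 in old mice (11.6%, 6.3% higher and 5.28% lower), again all higher. The median log2 difference of the members was 0.49 in young and 0.66 in old mice with 24 libraries. The median of all genes tested lay between -0.01 and 0.04 in all 7 comparisons of groups. The libraries of the sorts did not overlap for 3 of 10 members in young mice (12.4% of genes tested) and 4 of 10 in old mice (16.3%). With 22 libraries this was 5 of 10 at each age (23.9% and 22.8% of genes).

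Ccl9 (ENSMUSG00000019122, chromosome 11, 83572919 to 83578636, minus strand), a protein that attracts Ccr1-bearing monocytes and other leukocytes, was at 122, 85.6, 92.8 and 71.7 CPM in replicates 1 to 4 of young Siglec F-high cells. The young Siglec F-low libraries held 355, 343, 294 and 253 CPM. The lowest Siglec F-low library was thus above the highest Siglec F-high library by more than the spread of either group. The log2 difference was 1.74 ± 0.31 SE, or 3.34-fold (edgeR adjusted p 0.00107), and 1.74 ± 0.30 without the outlying libraries (edgeR adjusted p 0.000369). In old mice Ccl9 was at 127, 122, 62.9 and 150 CPM in Siglec F-high and at 421, 347, 357 and 491 CPM in Siglec F-low cells, again without overlap. The difference there was 1.79 ± 0.31 (edgeR adjusted p 0.00107), and 1.60 ± 0.30 with 22 libraries (edgeR adjusted p 0.000765). Of its exonic 50-base stretches, 1.97% also occur in other genes.

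Cxcl16 (ENSMUSG00000018920, chromosome 11, 70453983 to 70459984, minus strand) is unusual among chemokines in being made as a membrane protein, which holds Cxcr6-bearing T cells or is shed by the proteases Adam10 and Adam17. Its libraries showed the tightest groups of the members in the young Siglec F-low sort, at 31.8, 34.7, 30.3 and 33.7 CPM, against 10.9, 8.45, 15.5 and 10.9 CPM in Siglec F-high cells. The difference was 1.52 ± 0.18 on the log2 scale (edgeR adjusted p 1.23e-05), and 1.69 ± 0.15 with 22 libraries. Old Siglec F-high cells held 20.4, 15.1, 9.80 and 14.6 CPM and old Siglec F-low cells 51.5, 37.7, 38.9 and 49.5 CPM. This was a difference of 1.51 ± 0.18 (edgeR adjusted p 2.63e-05), and 1.41 ± 0.14 with 22 libraries. The gene overlaps Zmynd15 on the opposite strand over 552 exonic bases, 18.3% of its exonic length, and the strand setting of the counting is not given, so reads of the overlap cannot be assigned to either gene. Zmynd15 was at 0.875 ± 0.656 CPM (SD, n = 4) in young Siglec F-high and 3.08 ± 0.976 in Siglec F-low cells, and at 0.905 ± 0.666 and 4.33 ± 1.14 in old cells. On the log2 scale its sort difference was 1.75 ± 0.53 in young (edgeR adjusted p 0.0618, and 0.0147 with 22 libraries) and 1.96 ± 0.56 in old mice (edgeR adjusted p 0.0468), in the same direction as that of Cxcl16, and its part in the Cxcl16 counts was not tested. Of the proteases and partners of Cxcl16 (Adam10, Adam17, Dpp4, Sdc1 and Sdc4), Sdc1 was higher in the Siglec F-low sort of young mice, and Sdc1 and Sdc4, surface proteoglycans, in that of old mice. Sdc4 also passed in young mice with 22 libraries. Adam10 and Adam17 passed in neither fit. The Adam10 difference was 0.09 ± 0.09 in young mice with 24 libraries, and that of Adam17 was 0.20 ± 0.09 in old mice (edgeR adjusted p 0.592 and 0.29).

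Ccl6 (ENSMUSG00000018927, chromosome 11, 83587882 to 83593087, minus strand), a rodent Ccr1 ligand made in quantity by macrophages, was at 4184 to 5550 CPM in young Siglec F-high and 6771 to 9025 CPM in young Siglec F-low cells. The groups did not overlap, and the difference was 0.73 ± 0.21 (edgeR adjusted p 0.0489), or 0.68 ± 0.16 with 22 libraries (edgeR adjusted p 0.00452). The call in the fit of 24 was weak, since it was lost in 20 of the 24 fits that each left out 1 library, with edgeR adjusted p from 0.0518 to 0.147. In old mice Ccl6 was at 5323, 5662, 2775 and 6513 CPM in Siglec F-high and at 8158, 6212, 7346 and 9427 CPM in Siglec F-low cells, a difference of 0.62 ± 0.21 that did not pass (edgeR adjusted p 0.122, and 0.0917 with 22 libraries). With 22 libraries and the replicate number as a block, it was 0.45 and passed (edgeR adjusted p 0.0435). The labels do not say that equal numbers mark the same mouse, and that fit was chosen after seeing the data.

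Ccl17 (ENSMUSG00000031780, chromosome 8, 94810453 to 94812036, plus strand) attracts Ccr4-bearing T cells and is known from dendritic cells and alternatively activated macrophages. In old mice it was at 24.5, 28.6, 0.817 and 13.97 CPM in Siglec F-high and at 81.1, 61.5, 71.7 and 55.7 CPM in Siglec F-low cells, with no overlap. The difference was 1.83 ± 0.53 (edgeR adjusted p 0.0549), and it passed without the outlying libraries at 1.58 ± 0.38 (edgeR adjusted p 0.00714). In young mice the values were 10.1, 11.4, 33.5 and 9.23 CPM in Siglec F-high and 24.5, 73.1, 15.8 and 22.4 CPM in Siglec F-low cells, and replicate 3 of the former and replicate 2 of the latter lay far above the rest. The difference was 1.10 ± 0.52 (edgeR adjusted p 0.236) with 24 libraries and 1.73 ± 0.40 (edgeR adjusted p 0.00515) with 22.

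Ccl2 (ENSMUSG00000035385, chromosome 11, 82035571 to 82037453, plus strand) was at 4.23, 6.71, 26.3 and 4.37 CPM in young Siglec F-high and at 8.70, 10.6, 10.4 and 8.96 CPM in young Siglec F-low cells. The sign of its difference rested on replicate 3 of the former, at -0.07 ± 0.41 with it and 0.91 ± 0.24 (edgeR adjusted p 0.0144) in the fit of 22. In old mice Ccl2 was at 10.005, 9.20, 4.90 and 11.5 CPM against 14.3, 15.5, 13.3 and 18.8 CPM in Siglec F-low cells, without overlap, and did not pass (0.70 ± 0.42 with 24 libraries and 0.60 ± 0.23 with 22, edgeR adjusted p 0.47 and 0.0974). Ccl3 (ENSMUSG00000000982, chromosome 11, 83647844 to 83649355, minus strand) was at 23.6 to 70.8 CPM in young Siglec F-high and 43.4 to 84.3 CPM in young Siglec F-low cells, and passed with 22 libraries only (0.79 ± 0.24, edgeR adjusted p 0.0307). Ccl4 (ENSMUSG00000018930, chromosome 11, 83662584 to 83664683, plus strand), its neighbour and close relative, stayed between 0.817 and 6.96 CPM over all 24 libraries and passed in none of the 7 comparisons in either fit.

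Markers of other cells were measured beside the sort differences. The summed level of the 15 monocyte and monocyte-derived macrophage markers was 1093 to 1270 CPM in young and 1244 to 1474 CPM in old Siglec F-low cells, against 611 to 846 and 776 to 955 CPM in the Siglec F-high cells of the 22 libraries, so it moved in the same direction as Ccl9, Cxcl16, Ccl17 and Ccl6. As given above, fewer of the 15 resident alveolar macrophage markers were higher than lower at both ages. Their summed level nevertheless moved in the same direction as those ligands. It was 40392 to 52452 CPM in young and 56294 to 70694 CPM in old Siglec F-low cells. The Siglec F-high cells of the 22 libraries held 28035 to 31808 CPM in young and 40164 to 44589 CPM in old mice. The part of either list in these differences was not tested. Neutrophil markers summed to 83.8 to 108 CPM in Siglec F-low cells, and Ly6g, Camp and Mpo were under 1 CPM in every library. Csf3r was lower in young Siglec F-low cells in both fits, and S100a8, S100a9 and Mmp8 were higher there with 22 libraries. Dendritic cell markers summed to 33.5 to 57.7 CPM in Siglec F-low cells and 32.5 to 54.4 CPM in the Siglec F-high cells of the 22. None of the 12 passed in either sort comparison with 24 libraries, 0 and 3 of them had an unadjusted p under 0.05, and DESeq2 called 0. With 22 libraries Mgl2 was higher in old Siglec F-low cells.

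**Figure D2:**
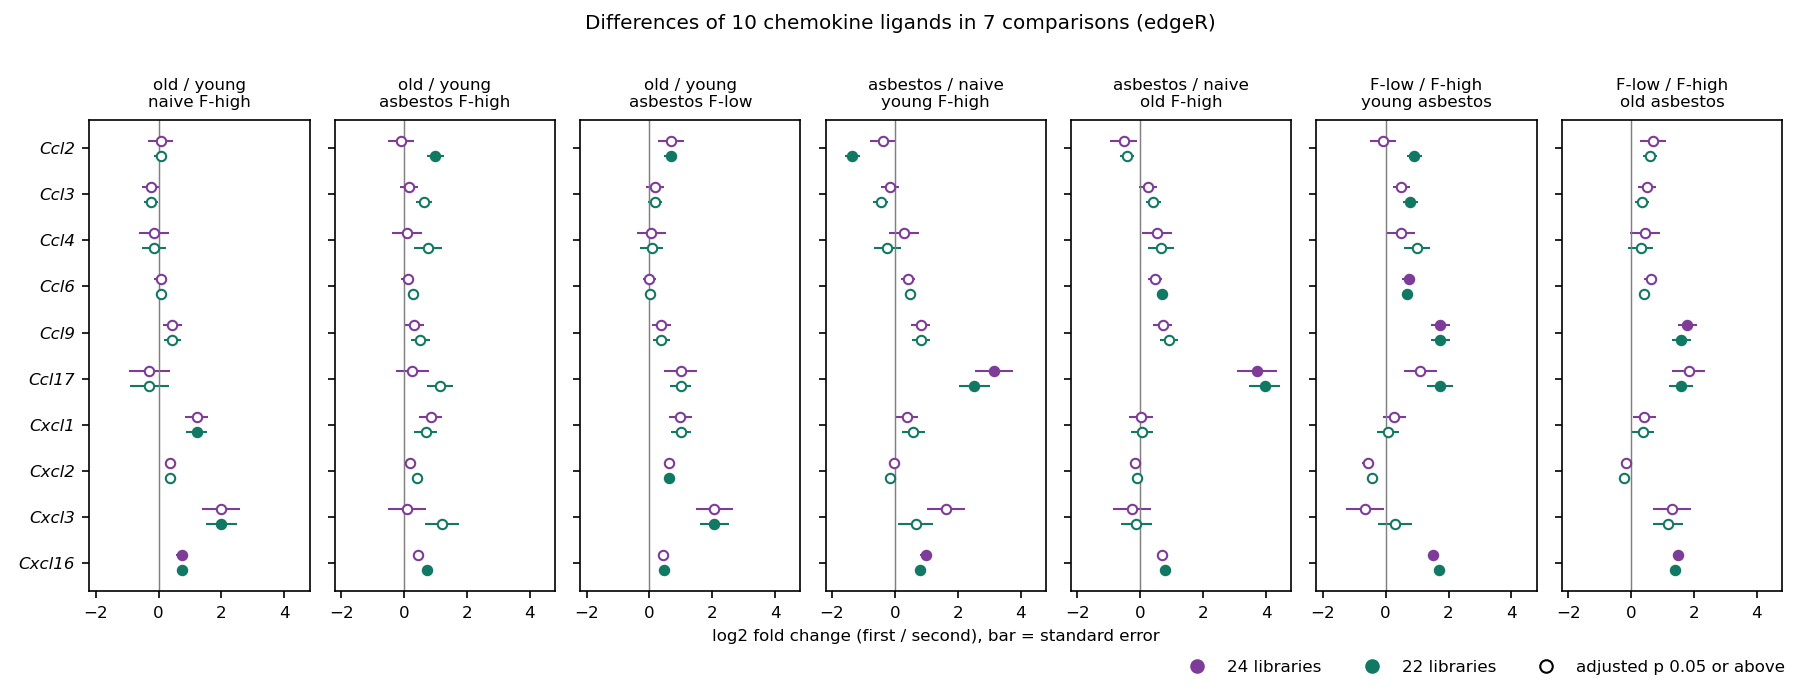
log2 fold change of each chemokine ligand (x axis, bars are standard errors) in the 7 comparisons of groups, from edgeR with 24 libraries (purple) and with 22 (green), filled where the adjusted p was under 0.05. Ccl9 and Cxcl16 are filled in both fits of both sort comparisons, Ccl17 in both fits of both asbestos comparisons, and the Ccl2 points of the 2 fits lie apart wherever young asbestos Siglec F-high cells enter.

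The asbestos comparison asks what changed in Siglec F-high cells 28 days after the fibres were given. Ccl17 rose at both ages, from at most 3.20 CPM in every naive library to between 9.23 and 33.5 CPM in 7 of the 8 asbestos Siglec F-high libraries, and Cxcl16 rose in young mice. In young mice 2 of 10 members passed, both higher (1.9% of genes tested, 1.43% higher and 0.475% lower), and in old mice 1 of 10, higher (0.78%, 0.713% higher and 0.0668% lower). With 22 libraries 3 of 10 passed in young mice, 2 higher and 1 lower (5.06% of genes, 3.48% higher and 1.58% lower), and 3 of 10 in old mice, all higher (4.12%, 3.16% higher and 0.969% lower). The members' median was 0.40 in young and 0.37 in old mice. Naive and asbestos libraries did not overlap for 3 of 10 members in young mice (8.49% of genes tested) and 0 of 10 in old mice (7.7%). With 22 libraries this was 4 of 10 at each age (16.7% and 16.5% of genes).

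Ccl17 was at 1.96, 1.78, 2.24 and 1.08 CPM in young naive cells, on 20 to 46 counts a library. The 4 young asbestos libraries (10.1, 11.4, 33.5 and 9.23 CPM) all lay above them, and the difference was 3.16 ± 0.60, or 8.92-fold (edgeR adjusted p 0.00544). Without replicate 3 of the asbestos group it was 2.52 ± 0.49, or 5.75-fold, in the fit of 22 (edgeR adjusted p 0.00331). Old naive cells held 0.991, 3.20, 0.663 and 0.888 CPM, and old asbestos cells 24.5, 28.6, 0.817 and 13.97 CPM. The groups overlapped through the shallow replicate 3 alone, and the difference was 3.71 ± 0.62 (edgeR adjusted p 0.00364) with it and 3.96 ± 0.49 (edgeR adjusted p 2.96e-05) without. Ccl17 is a known dendritic cell product. The 12 dendritic cell markers summed to 38.2 to 67.3 CPM in naive and 32.5 to 54.4 CPM in asbestos Siglec F-high cells of the 22 libraries. Of these markers, 0 of 12 were higher in either fit at either age. In young mice Dpp4 was lower in both fits, and Cd209a with 22 libraries. DESeq2 called 0 of them higher, and 3 in young and 2 in old mice had an unadjusted p under 0.05. Eosinophil markers summed to 2.36 to 8.05 CPM in naive and 13.6 to 35.3 CPM in asbestos Siglec F-high cells of the 22. Of 3 that could be tested Ear6 alone was higher, at both ages, while Epx, Prg3 and Il5ra were under 1 CPM in every library. The part of dendritic cells or of eosinophils in the Ccl17 difference was not tested.

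Cxcl16 was at 6.18, 5.16, 6.46 and 5.20 CPM in young naive cells, below all 4 young asbestos Siglec F-high libraries, a difference of 0.98 ± 0.18 (edgeR adjusted p 0.00483) and of 0.80 ± 0.15 with 22 libraries (edgeR adjusted p 0.00305). In old mice it was at 8.22, 10.3, 8.78 and 11.2 CPM in naive cells, and the difference was 0.70 ± 0.18 (edgeR adjusted p 0.0863), passing with 22 libraries at 0.80 ± 0.14 (edgeR adjusted p 0.00188). The call appeared on leaving out replicate 3 of the old or of the young asbestos Siglec F-high group alone (edgeR adjusted p 0.0349 and 0.00704). Ccl6 passed in old mice with 22 libraries only, at 0.68 ± 0.15 (edgeR adjusted p 0.0114, and 0.52 with 24).

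Ccl2 was the 1 member that was lower after asbestos in any fit. Young naive cells held 7.41, 15.98, 14.1 and 15.1 CPM, above the 4.23, 6.71 and 4.37 CPM of young asbestos replicates 1, 2 and 4 but below the 26.3 CPM of replicate 3. The difference was -1.36 ± 0.24 (edgeR adjusted p 0.00136) in the fit of 22 and -0.37 ± 0.41 (edgeR adjusted p 0.622) with all 24. In old mice the naive libraries held 12.5, 19.5, 12.0 and 10.9 CPM and the difference was -0.43 ± 0.23 with 22 libraries, which did not pass. Ly6c2, a monocyte gene singled out after its values were seen, was lower in the same young comparison in both fits (-2.53 ± 0.65 with 24 libraries and -2.27 ± 0.65 with 22, edgeR adjusted p 0.0459 and 0.0435). Of 9 B cell markers, 3 were lower there with 24 libraries, Cd79b and Cd79a among them, the list's sum being 225 to 257 CPM in young naive and 195 to 208 CPM in young asbestos Siglec F-high cells of the 22. The part of these cells in the Ccl2 difference was not tested. Genes that respond to tissue handling moved with the asbestos groups. Of 24 immediate early and handling genes, 0 were higher and 7 lower in young mice, led by Rhob, Hspa1b and Jun, and 0 were higher and 3 lower (Rhob, Jun and Egr1) in old mice. Their summed level was 11924 to 12833 CPM in young naive and 8639 to 10200 CPM in young asbestos Siglec F-high cells of the 22 libraries. Ccl2, Ccl3, Cxcl1 and Cxcl2 can be induced by the same handling, and the part of handling in the asbestos differences was not tested.

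Ccl9, Ccl3, Ccl4, Cxcl1, Cxcl2 and Cxcl3 passed after asbestos in neither fit at either age. Ccl9 was at 82.0, 44.4, 39.9 and 44.2 CPM in young naive and at 46.2, 98.9, 35.5 and 104 CPM in old naive cells, and its asbestos differences were 0.82 ± 0.29 and 0.90 ± 0.29 with 22 libraries (edgeR adjusted p 0.107 and 0.0782). Cxcl1, Cxcl2, Ccl3 and Ccl4 differed by -0.45 to 0.67 in that fit. Cxcl3 differed by 1.63 ± 0.61 in young mice with 24 libraries, 0.66 ± 0.56 with 22, and -0.12 ± 0.48 in old mice with 22, none of which passed, although its 4 young asbestos libraries all lay above the young naive ones. The age difference of the asbestos response passed for 0 of 10 members in either fit (0.0% of genes with 24 libraries and 0.0147% with 22, lowest edgeR adjusted p 0.587 and 0.824). DESeq2 also called 0, and 1 member with 24 libraries and 2 with 22 had an unadjusted p under 0.05. Whether Ccl17, Cxcl16 or Ccl2 responded differently in old mice was thus not resolved.

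The age comparisons ask how old macrophages differ from young ones of the same sort and exposure. Cxcl16 was higher in old naive cells, and the neutrophil-attracting ligands Cxcl1 and Cxcl3 had the larger differences there. With edgeR these did not pass with 24 libraries and passed with 22, and DESeq2 called both with 24. In naive Siglec F-high cells 1 of 10 members passed, higher (2.03% of genes, 1.68% higher and 0.349% lower), and 3 of 10 with 22 libraries, all higher (8.03%, 5.11% higher and 2.91% lower). In asbestos Siglec F-high cells 0 of 10 passed with 24 (4.76% of genes, 2.89% higher and 1.87% lower) and 2 of 10 with 22, both higher (7.32%, 4.84% higher and 2.47% lower). In asbestos Siglec F-low cells 0 of 10 passed with 24 (1.29%, 0.869% higher and 0.423% lower) and 4 of 10 with 22, all higher (7.21%, 3.8% higher and 3.41% lower). For those counts of 0, 2 and 4 members had an unadjusted p under 0.05 with edgeR, and DESeq2 called 0 and 2. No member was lower in old mice in these 3 comparisons in either edgeR fit or with DESeq2. Young and old libraries did not overlap for 2 of 10 members in naive cells (12.0% of genes tested). This was 0 of 10 in asbestos Siglec F-high (9.42%) and 4 of 10 in Siglec F-low cells (12.9%). With 22 libraries it was 2, 6 and 4 of 10 in that order (12.0, 27.6 and 12.9% of genes).

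Cxcl1, Cxcl2 and Cxcl3 lie in 1 cluster on chromosome 5, and their promoters carry a shared NF-kB motif. With 22 libraries Cxcl1, Cxcl2 and Cxcl3 each passed in at least 1 age comparison, as did Cxcl16 and Ccl2. With 24 libraries none of the genes of the cluster passed an age comparison in edgeR. The stretches from 150 to 31 bases before the RefSeq start of each gene of the cluster (build GRCm38.p6, plus strand) are shown. Capitals mark the same classical binding motif of NF-kB in each, the transcription factor that drives many inflammatory genes. They span chr5:90891095-90891214 for Cxcl1, chr5:90903749-90903868 for Cxcl2 and chr5:90785951-90786070 for Cxcl3.
Cxcl1: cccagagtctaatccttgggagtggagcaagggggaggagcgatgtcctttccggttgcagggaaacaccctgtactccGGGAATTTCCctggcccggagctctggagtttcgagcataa
Cxcl2: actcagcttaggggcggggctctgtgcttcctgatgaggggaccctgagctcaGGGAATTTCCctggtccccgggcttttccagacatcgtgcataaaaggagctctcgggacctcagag
Cxcl3: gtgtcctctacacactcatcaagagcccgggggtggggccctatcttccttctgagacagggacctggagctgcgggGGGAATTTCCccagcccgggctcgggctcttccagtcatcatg
The letters in capitals were searched on both strands from 250 bases before to 50 after the start and occurs once in each, beginning 71 bases before the start in Cxcl1, 97 in Cxcl2 and 73 in Cxcl3. Of 32544 promoters of that length in the RefSeq table, 29 hold it, or 0.0891%, Nfkbia among them. The RefSeq table held promoters for 7 of the 10 members, and Ccl3, Ccl6, Ccl9 and Ccl17 have 0 matches. A match describes these letters only. Cxcl2 and Cxcl3 also share sequence within their exons, 126 stretches of 50 bases or 5.84% of those of Cxcl2, so a part of their reads may be shared or dropped in counting.

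Cxcl1 (ENSMUSG00000029380, chromosome 5, 90891241 to 90893115, plus strand) was at 5.92, 4.96, 3.06 and 4.34 CPM in young naive and at 14.2, 10.3, 4.14 and 13.5 CPM in old naive cells, where replicate 3 lay within the young range. The difference was 1.21 ± 0.37 (edgeR adjusted p 0.113) with 24 libraries and 1.21 ± 0.33 (edgeR adjusted p 0.0246) with 22. In Siglec F-low cells the young libraries held 9.78, 8.56, 5.37 and 5.20 CPM and the old ones 12.0, 16.04, 12.0 and 17.3 CPM. The groups did not overlap, but the difference of 0.997 ± 0.32 did not pass (edgeR adjusted p 0.0618 with 22 libraries). In asbestos Siglec F-high cells it was 0.85 ± 0.37 with 24 libraries and 0.69 ± 0.37 with 22, and passed in neither.

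Cxcl3 (ENSMUSG00000029379, chromosome 5, 90786103 to 90789600, plus strand) was at 2.01, 1.72, 2.72 and 2.87 CPM in young naive cells and at 5.89, 4.99, 3.59 and 22.9 CPM in old naive cells. All old libraries lay above the young ones, and replicate 4 was far above the rest. The difference was 1.99 ± 0.61 (edgeR adjusted p 0.119), and 1.99 ± 0.49 (edgeR adjusted p 0.0126) with 22 libraries, 3.97-fold. Old Siglec F-low cells held 24.4, 20.6, 6.16 and 25.4 CPM and young ones 4.65, 6.33, 3.72 and 3.65 CPM, overlapping through old replicate 3. That difference was 2.06 ± 0.59 (edgeR adjusted p 0.112) and 2.07 ± 0.46 (edgeR adjusted p 0.00657). In asbestos Siglec F-high cells the young libraries held 4.66, 3.18, 18.7 and 3.31 CPM and the old ones 7.71, 5.68, 2.45 and 12.4 CPM, and the difference moved from 0.10 ± 0.60 to 1.21 ± 0.55 on leaving out replicate 3 of each, passing in neither fit. Between the old sorts Cxcl3 differed by 1.30 ± 0.59 with 24 libraries and 1.16 ± 0.48 with 22, which did not pass (edgeR adjusted p 0.285 and 0.133), and by 1.34 with 22 libraries and the replicate block (edgeR adjusted p 0.0265).

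Cxcl2 (ENSMUSG00000058427, chromosome 5, 90903871 to 90905938, plus strand) was the most abundant CXC ligand per kilobase in all 6 groups and varied little within most of them. In Siglec F-low cells the old libraries held 168, 170, 175 and 168 CPM, all above the young ones at 107, 118, 118 and 99.4 CPM. The difference was 0.62 ± 0.17 (edgeR adjusted p 0.0752), and 0.63 ± 0.14, or 1.55-fold, with 22 libraries (edgeR adjusted p 0.00675). Young naive cells held 176, 162, 166 and 160 CPM and old naive cells 219, 208, 144 and 279 CPM, which overlapped (0.36 ± 0.17, edgeR adjusted p 0.538). Cxcl2 had a negative sort difference at both ages in both fits (with 24 libraries -0.57 ± 0.17 in young and -0.15 ± 0.17 in old mice), which did not pass with edgeR (adjusted p 0.0504 and 0.801), while DESeq2 called the young one lower.

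Cxcl16 was higher in old cells in naive Siglec F-high libraries, which did not overlap the young ones, by 0.74 ± 0.18 or 1.67-fold (edgeR adjusted p 0.0324, and 0.00171 with 22 libraries). The call in the fit of 24 was lost on leaving out any 1 young naive library (replicates 1 to 4, edgeR adjusted p 0.0615, 0.115, 0.0585 and 0.138) or old naive replicate 2, 3 or 4 (0.0982, 0.0543 and 0.142). In asbestos Siglec F-high cells it passed with 22 libraries (0.74 ± 0.15, edgeR adjusted p 0.00405, against 0.121 with 24) and without young replicate 3 alone (edgeR adjusted p 0.0152). In Siglec F-low cells it passed with 22 libraries (0.45 ± 0.12, edgeR adjusted p 0.0253, against 0.37 with 24). Ccl2 was higher in old mice with 22 libraries in asbestos Siglec F-high (1.002 ± 0.26, edgeR adjusted p 0.0174) and Siglec F-low cells (0.68 ± 0.21, edgeR adjusted p 0.0463). With 24 libraries the first was -0.09 ± 0.42 (edgeR adjusted p 0.915) with young replicate 3 at 26.3 CPM included, and the second was 0.68 ± 0.41 (edgeR adjusted p 0.836). In naive cells Ccl2 differed by 0.07 ± 0.40, and by 0.07 ± 0.20 with 22. Ly6c2 was also higher in old mice in asbestos Siglec F-high cells in both fits (3.61 ± 0.67 and 3.11 ± 0.65, edgeR adjusted p 0.00243 and 0.00409) and in Siglec F-low cells with 22 libraries (2.05 ± 0.47, edgeR adjusted p 0.00821), and its part in the Ccl2 differences was not tested. Ccl3, Ccl4, Ccl6 and Ccl9 passed in none of the age comparisons, with differences from -0.25 to 0.77 over both fits. Ccl17 in asbestos cells was 1.14 ± 0.42 and 0.99 ± 0.33 higher in old Siglec F-high and Siglec F-low cells with 22 libraries, which did not pass (edgeR adjusted p 0.11 and 0.0755).

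Other genes of NF-kB signalling were counted in the same comparisons. Of 25 pathway and target genes, all tested, 0 passed in old naive cells with 24 libraries (4 had an unadjusted p under 0.05, and DESeq2 called 1 higher and 1 lower). With 22 libraries 4 were higher, Tnip1, Icam1, Nfkbie and Tnfaip2, and 1 lower, Birc3, where 8.03% of all genes passed. In asbestos Siglec F-high cells Irak2, a kinase of the interleukin-1 receptor pathway, was the 1 gene higher in old mice with 24 libraries, and Tnip1 and Irak2 were higher with 22. DESeq2 called Irak2 and Tnfaip2 higher and Nfkbia lower there. In Siglec F-low cells 0 of 25 passed with 24 libraries (2 unadjusted, DESeq2 0), and Irak3 was higher with 22. Nfkbia was at 120 ± 2.59 CPM (SD, n = 4) in young and 118 ± 51.4 in old naive cells. Of the immediate early and handling genes, Hspa1a and Hspa1b were lower in old naive cells with 24 libraries and none was higher. The differences were -1.73 ± 0.36 and -2.30 ± 0.41 (edgeR adjusted p 0.00879 and 0.00197). The part of handling in the age differences was not tested. Neutrophil markers were also measured beside these ligands. S100a8, S100a9 and Cxcr2 were higher in old asbestos Siglec F-high cells with 22 libraries, while Csf3r was -0.72 ± 0.23 (edgeR adjusted p 0.0585) and was called lower by DESeq2 with 24 libraries, the list's sum being 75.2 to 88.8 CPM against 70.2 to 80.6 CPM in young cells, and their part in the age differences was not tested. Among monocyte markers 9 of 15 were higher in old Siglec F-low cells with 22 libraries, led by Itgam, Plac8 and C1qb (1 of 15, Itgam, with 24), and their part was not tested either. Ighm, an immunoglobulin gene of B cells, was higher in old mice in all 3 age comparisons in both fits.

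The age difference of the sort difference passed for 0 of 10 members in either fit (0.0% of genes with 24 libraries and 0.0147% with 22, lowest edgeR adjusted p 0.761 and 0.891). DESeq2 called 0 of the members, and 1 with 24 libraries and 0 with 22 had an unadjusted p under 0.05. The largest of these was Cxcl3 at 1.96 ± 0.84 with 24 libraries and 0.86 ± 0.71 with 22.

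Across the 22 libraries some pairs of members with a high correlation were neighbours in the genome and others were not. Ccl6 and Ccl9, neighbours on chromosome 11, had a Pearson r of log2 CPM of 0.96, and of 0.83 after the group means were taken out. Ccl9 and Cxcl16 had 0.95 (0.45 within groups), and Ccl17 had 0.88 with each of Ccl6, Ccl9 and Cxcl16 (0.12 to 0.34 within groups), so these links rest mostly on the differences between groups. Ccl3 and Ccl4, also neighbours on chromosome 11, had 0.81 (0.69 within groups), and Cxcl1 and Cxcl3 had 0.80 (0.48 within groups). In the same cluster as these, Cxcl2 had 0.51 with Cxcl1 (0.78 within groups) and 0.41 with Cxcl3 (0.57 within groups). The lowest pooled r of the 45 pairs was that of Ccl17 with Cxcl2, at -0.33, and it was 0.10 within groups, where Ccl2 with Ccl6 was lowest at -0.23. The libraries share preparation and depth range, and these values describe them without a test.

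**Figure D3:**
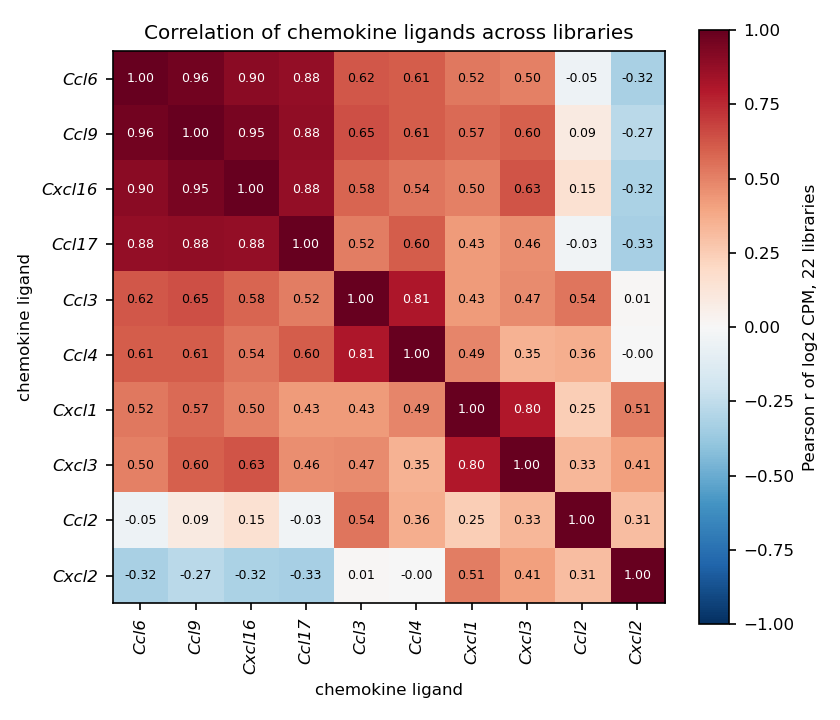
Pearson correlation of log2 CPM between each pair of the 10 chemokine ligands over the 22 libraries (x and y axes list the genes, colour and number give r). Ccl6, Ccl9, Cxcl16 and Ccl17 form a block with r between 0.88 and 0.96, and Cxcl2 has a negative pooled r against each of the 4, which is positive within groups (0.06 to 0.69).

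Among 12215 named genes, those whose pattern was most like each member were listed over the same 22 libraries by this pooled r. Within groups the r of these partners was often lower, at 0.46 to 0.52 for those of Cxcl16 and 0.52 to 0.70 for those of Ccl17, against 0.78 to 0.87 for those of Ccl4. For Ccl6 they were Ctsd (r = 0.97), a lysosomal protease, Wfdc17 (0.97) and Slc22a4 (0.97). Ccl9 went with Tpcn2 (0.97), a lysosomal channel, Ctsl (0.97), another lysosomal protease, and Arhgap10 (0.97). Cxcl16 went with Matk (0.99), Ctsb (0.98), also a cathepsin, and Acer3 (0.98). For Ccl17 they were Rnase2a (0.97), Fbp1 (0.97), an enzyme of gluconeogenesis, and Dixdc1 (0.96). Cxcl1 went with Gadd45a (0.86), Srxn1 (0.83) and Il1b (0.82), Cxcl2 with Sdsl (0.83), Ereg (0.81) and Armcx4 (0.80), and Cxcl3 with Rab12 (0.85), Icam1 (0.85) and H2-Q7 (0.84). Ccl3 went with Serinc1 (0.82), Ccl4 (0.81) and Zdhhc20 (0.80), and Ccl4 with Cox17 (0.86), Ptgs2 (0.84), the inducible cyclooxygenase, and Slc25a3 (0.84). Ccl2 went with S100a9 (0.90, and 0.88 within groups), which was at most 2.47 CPM in any library, Sp100 (0.83) and Plac8 (0.81).

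Receptors for the members were measured in the same cells, and 19 of 23 chemokine receptor genes could be tested. The most abundant were Cxcr4, Ccr1, Ccrl2 and Cxcr1. Ccr1, the receptor of Ccl3, Ccl6 and Ccl9, was at 120 ± 11.5 CPM (SD, n = 4) in young naive cells and was higher in old Siglec F-low than in old Siglec F-high cells (0.48 ± 0.13, edgeR adjusted p 0.0427, and 0.38 ± 0.12 with 22 libraries). Cxcr1, a receptor of neutrophil-attracting ligands, rose after asbestos in young (1.72 ± 0.34, edgeR adjusted p 0.00822) and old Siglec F-high cells (1.70 ± 0.34, edgeR adjusted p 0.0172), and with 22 libraries by 1.93 ± 0.31 and 1.83 ± 0.30. It was higher still in young Siglec F-low cells, at 138 ± 20 CPM. Ccrl2, a non-signalling receptor, was higher in old than in young asbestos Siglec F-high cells (0.85 ± 0.19, edgeR adjusted p 0.011, and 0.79 ± 0.16 with 22 libraries) and higher in the Siglec F-low sort of young mice, and Ccr7 was lower in the old asbestos Siglec F-high cells (-1.05 ± 0.30, edgeR adjusted p 0.0481), a call that was lost with 22 libraries (0.107). Cx3cr1 was higher in old Siglec F-low cells (1.37 ± 0.35, edgeR adjusted p 0.025, and 1.46 ± 0.28 with 22 libraries). Other receptors of the members, chosen for that reason after their values were seen, were scarce: mean levels were 10.7 to 21.4 CPM for Ccr2, 6.04 to 14.4 for Cxcr2, 1.66 to 3.72 for Cxcr6 and 0.442 to 0.837 for Ccr4 over the 6 groups.

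**Figure D4:**
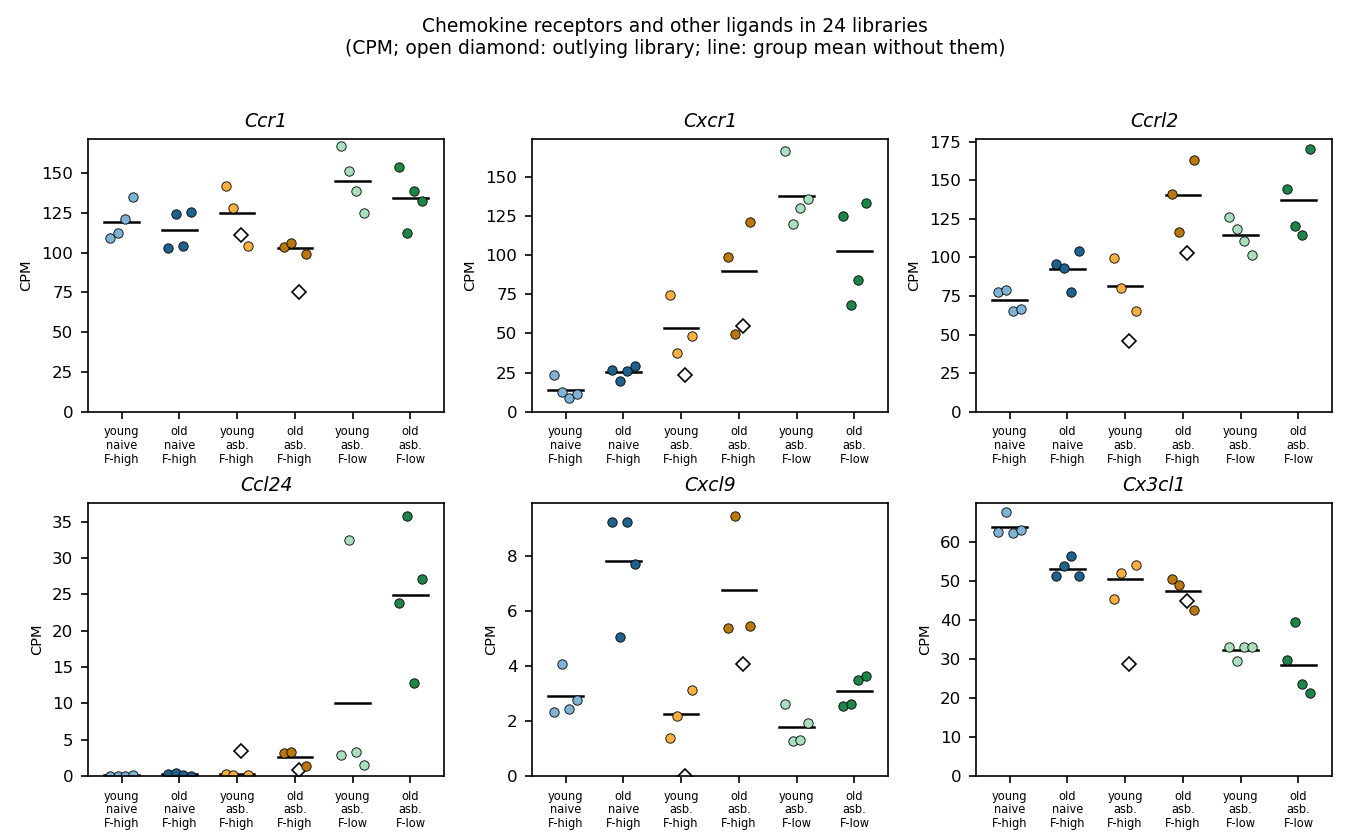
Level (y axis, CPM, linear from 0) of 3 chemokine receptors and 3 other chemokine ligands in the 4 libraries of each group (x axis; asb., asbestos; circles are libraries, open diamonds the libraries that stood apart, lines group means without them). Cxcr1 is highest in young Siglec F-low cells, Ccl24 is near 0 outside the Siglec F-low sort except for up to 3.38 CPM after asbestos, and Cx3cl1 is lowest in the Siglec F-low groups.

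The other chemokine ligands were low beside the members. Of 27 such genes 15 could be tested with 24 libraries and 16 with 22, their sum was 69.1 to 126 CPM in any library, and Ccl19, Ccl20, Ccl21a and Cxcl5 had no count in any. The most abundant were Cx3cl1, Ccl22, Cxcl14, Ccl24 and Cxcl9. Ccl24, an eosinophil attractant, was higher in Siglec F-low cells of young (3.58 ± 0.90, edgeR adjusted p 0.0203) and old mice (3.30 ± 0.86, edgeR adjusted p 0.0271), passing with 22 libraries in both ages, reaching 24.9 ± 9.47 CPM in old Siglec F-low cells. Cx3cl1, the membrane-bound ligand of Cx3cr1, was lower in old Siglec F-low cells (-0.72 ± 0.17, edgeR adjusted p 0.0165, and -0.74 ± 0.13 with 22 libraries). Cxcl9, an interferon-induced T cell attractant, was higher in old than in young asbestos Siglec F-high cells (1.88 ± 0.49, edgeR adjusted p 0.0304, and 1.62 ± 0.32 with 22 libraries). Ccl22 shares the receptor Ccr4 with Ccl17 and lies near Ccl17 on chromosome 8, with Cx3cl1 between them. Ccl22 was at 10.1 ± 1.22 CPM in young naive and 15.3 ± 2.80 CPM in young asbestos Siglec F-high cells. It passed in none of the 7 comparisons in either fit.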

How the data were processed

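Poly(A) RNA of 24 libraries was sequenced, and the deposited files hold raw counts per gene, made by the authors with bcl2fastq 2.19.1, FastQC, Trimmomatic 0.36, STAR 2.6.0 and HTSeq 0.11.2 on mm10, per the submitters' processing notes. The strand setting and annotation release are not given in the sources used here. Symbols, exonic lengths and positions came from GENCODE M21 on GRCm38, which named 42462 of 43430 gene IDs, and promoters from RefSeq (GRCm38.p6).

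Groups came from the labels. edgeR 4.0.16 in R 4.3.3 (quasi-likelihood test, filterByExpr with a minimum count of 10 and total of 15, trimmed mean of M-values scaling, 1 term per group) was fitted to all 24 libraries, with Benjamini-Hochberg adjustment over all genes tested a call needing an adjusted p below 0.05. Standard errors are the log2 fold change over the root of F. The code was tested on simulated data. The same fit ran on 22 libraries. Alternatives were DESeq2 1.42.0, its size factors in edgeR (RLE), no filter on low counts, a replicate block and each library left out. A fit of 22 libraries with the block for the old sort comparison was chosen after seeing the data. The labels do not say that replicate numbers pair the sorts. Deviations from the group means of same-numbered old sorts had r = 0.15, 0.19 and 0.21 with 22 libraries and 0.073 to 0.19 with 24. In young mice r was 0.085 to 0.32 with 22 libraries and -0.18 to 0.245 with 24. Differently numbered libraries were not compared, so these values do not show a pairing.

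The members and gene lists were chosen with earlier results of these data known. Named receptors and other ligands are the 5 most abundant of each list and, per comparison, those called with the lowest p, at most 3 higher and 3 lower. Genes of like pattern are the 3 of highest correlation with a member. Some genes that this rule names are not reported here.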

Additional observations from a re-analysis of the deposited data

Results flagged for a closer look

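In 7 of the 60 sets of 4 libraries (10 members in 6 groups), 1 library lay far from the other 3 by Dixon's test at the 95% level, where chance gives about 1 in 20. Young asbestos Siglec F-high replicate 3, one of the libraries that stood apart, was such a library for Ccl2 (26.3 CPM against 4.23 to 6.71), Ccl17 (33.5 CPM against 9.23 to 11.4) and Cxcl3 (18.7 CPM against 3.18 to 4.66). Ccl17 was also high in old naive Siglec F-high replicate 2 (3.20 CPM against 0.663 to 0.991) and in young asbestos Siglec F-low replicate 2 (73.1 CPM against 15.8 to 24.5). Cxcl3 was high in old naive Siglec F-high replicate 4 (22.9 CPM against 3.59 to 5.89), and Ccl9 in young naive Siglec F-high replicate 1 (82.0 CPM against 39.9 to 44.4).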

How the results depend on the processing

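Of 74 member values, 73 kept direction and side of the threshold with RLE size factors, 71 without the low-count filter, 65 with DESeq2, 69 with the replicate block and 56 with 22 libraries. In the order naive, asbestos Siglec F-high and Siglec F-low age comparisons, young and old asbestos comparisons, then young and old sort comparisons, 22 libraries called 3, 2, 4, 3, 3, 6 and 3 members and 1094, 997, 983, 690, 562, 1638 and 1578 genes, and 2 genes in each interaction. DESeq2 called 3, 0, 2, 2, 2, 4 and 4 members and 454, 1465, 332, 588, 254, 1100 and 940 genes, and 4 genes for the age difference of the sort difference. Without the filter 0 members passed in the naive age comparison. The replicate block called 1, 0, 0, 2, 1, 3 and 3 members, gaining Ccl17 in the old sort comparison (1.92, edgeR adjusted p 0.039). With 22 libraries and the replicate block that comparison called 5 members and 1954 genes, adding Ccl6 (0.45, edgeR adjusted p 0.0435) and Cxcl3 (1.34, edgeR adjusted p 0.0265). Signs turned with 22 libraries for Ccl2 between ages in asbestos Siglec F-high cells (1.002) and between young sorts (0.91), Cxcl3 between young sorts (0.30), Ccl4 after asbestos in young mice (-0.24) and Ccl17 in the age difference of the sort difference (-0.15). With the replicate block they turned for Ccl2 in the same comparisons (0.11 and 0.061), Cxcl3 between ages in asbestos Siglec F-high cells (-0.0094, and -0.039 with DESeq2) and Ccl6 between ages in Siglec F-low cells (-0.00318). The cause was not tested.

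Leaving out 1 library at a time gave 0 to 3, 0 to 2, 0 to 2, 2 to 3, 1 to 2, 2 to 4 and 2 to 3 members in that order and 0 in both interactions, and 179 to 726, 314 to 1592, 77 to 620, 101 to 647, 39 to 411, 427 to 1158 and 269 to 1543 genes, with 0 to 2 in each interaction. The calls of Ccl9 and Cxcl16 between sorts and of Ccl17 after asbestos were kept in every such fit. Differences whose sign turned ranged, in naive age, from -0.15 to 0.17 (Ccl2), -0.44 to 0.075 (Ccl4) and -0.017 to 0.22 (Ccl6). In asbestos Siglec F-high age they ranged from -0.35 to 0.93 (Ccl2), -0.041 to 0.50 (Ccl3), -0.16 to 0.67 (Ccl4), -0.024 to 0.33 (Ccl6), -0.035 to 0.98 (Ccl17) and -0.27 to 1.11 (Cxcl3). In Siglec F-low age they ranged from -0.23 to 0.32 (Ccl4) and -0.10 to 0.10 (Ccl6). After asbestos in young mice they ranged from -0.45 to 0.049 (Ccl3), -0.23 to 0.55 (Ccl4) and -0.15 to 0.12 (Cxcl2), and in old mice from -0.31 to 0.22 (Cxcl1) and -0.64 to 0.69 (Cxcl3). Between young sorts they ranged from -0.33 to 0.91 (Ccl2) and -0.91 to 0.30 (Cxcl3). Depth limits the members at low counts, such as naive Ccl17 on 12 to 57 counts a library.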
